A study of Mus musculus with 6 samples.

Results

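Aminoacyl-tRNA synthetases are the enzymes that load each amino acid onto its transfer RNA, and 36 of their genes were followed here among 16665 genes measured in RAW264.7 cells, a mouse macrophage-like line from a leukaemia. The genes were taken from a list of symbols and not by a cut on their values. Earlier results of these data were known when the list was made. Each gene matched 1 Ensembl identifier, and 20 were listed as encoding cytosolic enzymes and 16 as encoding mitochondrial ones. One group of 3 libraries came from cells given a miR-125b mimic (a synthetic copy of that microRNA; genotype label miR-125b overexpression). The other 3 came from cells labelled NC, read here as negative control, with the genotype label miR-125b WT. Both groups are of the same line and both were transfected, and the labels do not state the arm of the mimic, the dose or the time after transfection. They do not say that replicates came from separate cultures either, so the spread behind each p-value is that between these libraries and may be technical.

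Translation needs every transfer RNA charged with the right amino acid, in the cytosol and in the mitochondrion. The mitochondrion uses a largely, but not fully, separate set of nuclear-encoded enzymes. Class I and class II synthetases are unrelated folds that attach the amino acid in different ways. In animal cells several cytosolic synthetases sit in the multi-synthetase complex, held together by the scaffold proteins Aimp1, Aimp2 and Eef1e1. Uncharged transfer RNA activates the kinase Gcn2 (gene Eif2ak4), which raises the transcription factor ATF4, and ATF4 switches on amino acid transporters, amino acid synthesis and many cytosolic synthetase genes.

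Values were FPKM, which divide a gene's fragments by its length and by the depth of the library. Depth, recovered from the steps between low values, was 14510000 to 16770000 fragments per library. At a depth of 14730000 fragments, negative control 3 had 13266 genes above 0 FPKM. The other libraries had 15141 to 15470. Negative control 3 stood apart: over the 10166 genes with a mean of at least 1 FPKM, it lay nearer to the mimic mean than to the other controls in 65.7%. Among libraries mimic 3 was next, nearer to the controls in 47.7% of genes. Results below are therefore given with and without negative control 3. That library was singled out from these same values. Leaving out the control most like the mimics can widen the difference and narrow the spread. Calls and adjusted p-values without it thus lean towards finding differences and are a description. All 10 macrophage markers were present in each library (Lyz2 at 5720 to 7838 FPKM, Adgre1 at 19.4 to 21.9). Of 11 markers of fibroblasts, epithelium, endothelium and lymphocytes, the 3 analysed here (Col1a1, Pdgfrb and Pecam1) did not exceed 0.178 FPKM.

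The microRNA is shown first because its seed, bases 2 to 8 in capitals, sets which messages it could bind. The sequence is that of mmu-miR-125b-5p in RefSeq (GRCm38.p6), the 5p arm being assumed.
mmu-miR-125b-5p: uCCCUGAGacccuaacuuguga
Sites for this seed were searched in the longest 3′ untranslated region (3′ UTR) of each gene in GENCODE M21 (GRCm38), as 3 nested forms, the 8mer CTCAGGGA and, within it, the 7mers CTCAGGG and TCAGGGA. Of the 20 cytosolic synthetases 2 held a site, Wars and Tars, and of the 13 mitochondrial ones that were tested 7 did, against 24% of all 9313 tested genes with a 3′ UTR. A longer 3′ UTR gives more room for a site, and these counts were not adjusted for its length. The 8mer sites, the longest pairing, are printed with the site in capitals.
Wars, chr12:108860131-108860156, minus strand: aagccgtacCTCAGGGAaagcccctg
Lars2, chr9:123461802-123461827, plus strand: taaggcgagCTCAGGGAggacagaaa
Nars2, chr7:97063066-97063091, plus strand: tcagcgttcCTCAGGGActctgactt
Tars2, chr3:95744390-95744415, minus strand: tctctttgaCTCAGGGAcccctcaca
Yars2, chr16:16307574-16307599, plus strand: atcattcagCTCAGGGAtttgttgac
A match of letters is a description and not a measured binding site. Of these 5 messages Wars alone had an estimate below 0 (log2 fold change −0.26, SE 0.13), and the 4 mitochondrial ones stood at 0.098 for Lars2, 0.26 for Nars2, 0.0063 for Tars2 and 0.031 for Yars2. The other genes with a site, all 7mers, stood at −0.097 for Tars, −0.15 for Cars2, 0.21 for Vars2 and 0.14 for Wars2.

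With all 6 libraries no synthetase message passed the test, in either direction. In such bulk RNA a lower level in every cell and fewer cells with the message cannot be told apart. Genes were compared by limma on log2(FPKM + 1), two-sided, with Benjamini-Hochberg adjustment over all 10166 tested genes and a threshold of 0.05. At that threshold limma called 0 genes in all (0% of those tested; smallest adjusted p = 0.289), and voom on recovered fragments called 0 as well. Before adjustment 1344 genes (13.2%) had p under 0.05, and Farsa was the 1 synthetase among them, on the lower side, which held 5.26% of all genes. As a group the 20 cytosolic synthetases leaned lower: 15 had an estimate below 0 and 5 above, with a median log2 fold change of −0.13, where 43.7% of all tested genes were below 0 and 56.3% above, with a median of 0.041. The 13 tested mitochondrial synthetases leaned the other way, with 10 above 0 and 3 below and a median of 0.098. The remaining 3, Aars2, Ears2 and Pars2, had a mean under 1 FPKM and were not tested. These medians are a description; taken library by library, the list median had a within-group SD of 0.19 for the cytosolic list and 0.070 for the mitochondrial one, on the log2 scale.

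**Figure D1:**
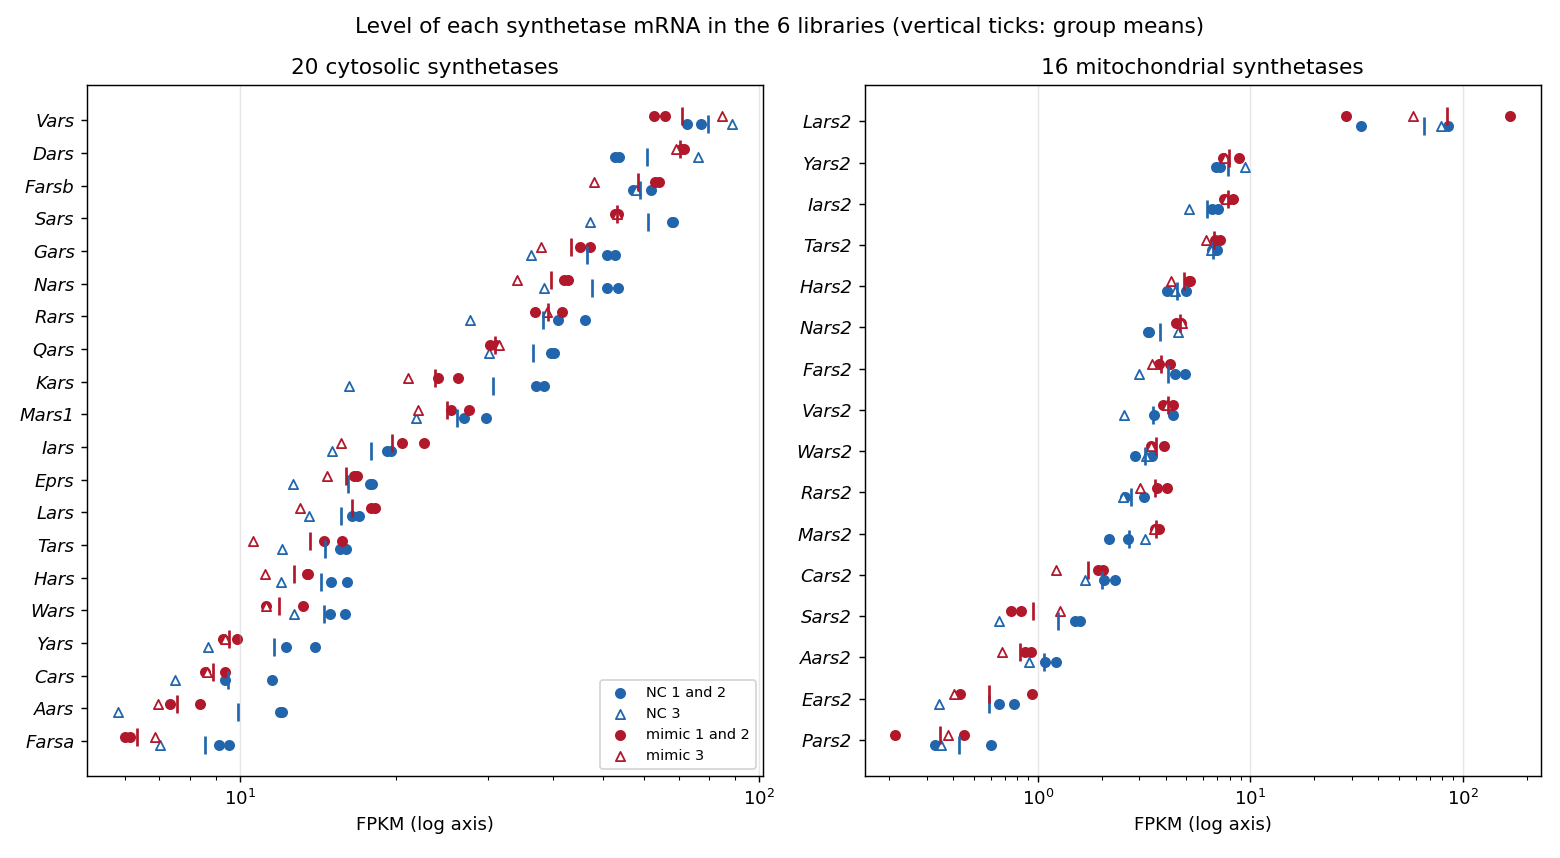
FPKM of each synthetase message (log axis) in the 3 negative control libraries (blue) and the 3 mimic libraries (red), with group means as vertical ticks and replicate 3 of each group as an open triangle. Cytosolic messages span 5.82 to 88.7 FPKM and mitochondrial ones, Lars2 apart, reach at most 9.46 FPKM; the open blue triangle of negative control 3 lies left of all other symbols in Aars and Kars and right of them in Dars and Vars.

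The compartments differed in their median levels, while single genes overlapped. Mitochondrial Yars2, for example, read 6.86 to 9.46 FPKM and cytosolic Farsa 6.01 to 9.54. FPKM is per length, and low values came out as whole fragments with the summed length of a gene's annotated exons. That length was 18102 bases for Eprs, 4538 for Farsa and 2620 for Farsb. It can exceed the length of the message, so levels and ratios between genes are only rough. The median over the 20 cytosolic enzymes was 24.7, 23.1 and 15.6 FPKM in negative controls 1, 2 and 3, and 23.3, 23.0 and 18.3 in mimics 1, 2 and 3. Over the 16 mitochondrial enzymes it was 3.39, 3.10 and 3.10 FPKM in the controls and 4.12, 3.72 and 3.49 in the mimics. The cytosolic order ran from Vars, which charges valine, down to Farsa, the catalytic subunit for phenylalanine. Vars, Dars, Farsb and Sars headed it, with ranges over the 6 libraries that overlapped (62.9 to 88.7 FPKM for Vars and 52.7 to 76.1 for Dars).

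Farsa had the smallest p of the 33 tested synthetases (unadjusted 0.0346, limma) and was the only cytosolic one whose groups did not overlap. It read 9.13, 9.54 and 7.01 FPKM in negative controls 1, 2 and 3 and 6.01, 6.15 and 6.88 in mimics 1, 2 and 3. Every mimic value lay below every control value, although mimic 3 and negative control 3 were close. Non-overlap on the lower side was found in 7.49% of all tested genes. The log2 fold change was −0.37 (SE 0.14, limma adjusted p = 0.354). Its partner Farsb, the other subunit of the same heterotetramer, read 57.2, 61.8 and 57.8 FPKM in controls and 62.9, 64.2 and 48.1 with the mimic (−0.024, SE 0.14). The ratio of Farsb to Farsa was 6.27, 6.48 and 8.24 in the controls and 10.5, 10.4 and 6.99 in the mimics, so the groups overlapped through replicate 3 of each.

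Several other cytosolic messages shared a second pattern, in which negative control 3 sided with the mimics. Aars, which charges alanine, read 12.1 and 11.9 FPKM in negative controls 1 and 2, 5.82 in negative control 3, and 8.38, 7.33 and 6.96 with the mimic. Negative control 3 was the lowest of the 6, and the log2 fold change was −0.30 (SE 0.26, limma adjusted p = 0.630). Of the exon bases of Aars 14.3% also belong to Exosc6 on the same strand, so some fragments cannot be assigned to 1 gene. Yars, for tyrosine, read 14.0, 12.3 and 8.67 FPKM in controls and 9.87, 9.29 and 9.37 with the mimic (−0.24, SE 0.17). Here too negative controls 1 and 2 were above all mimics and negative control 3 was below them. Qars, for glutamine, read 40.3, 39.6 and 30.2 FPKM in controls and 31.1, 30.3 and 31.5 with the mimic (−0.23, SE 0.14). Nars, for asparagine, read 50.9, 53.5 and 38.5 FPKM in controls and 42.0, 42.9 and 34.2 with the mimic (−0.25, SE 0.16). In Nars replicate 3 of each group was below the rest of its group. Wars, for tryptophan, read 14.9, 15.9 and 12.7 FPKM in controls and 13.3, 11.2 and 11.2 with the mimic, and its groups overlapped only through negative control 3.

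In Dars negative control 3 also sided with the mimics, but the direction was the opposite, and Vars did not follow the pattern. Dars, for aspartate, read 52.7, 53.7 and 76.1 FPKM in negative controls 1, 2 and 3 and 71.5, 70.8 and 69.2 in the mimics. Its estimate was 0.23 (SE 0.16, limma adjusted p = 0.537). Its first 2 controls were below all mimics, and negative control 3 was the highest library. Vars read 77.4, 72.7 and 88.7 FPKM in controls and 65.8, 62.9 and 84.7 with the mimic (−0.17, SE 0.15). In Vars replicate 3 of each group was the high one. Kars, for lysine, which serves both compartments from 1 gene, is given here because of its spread, a choice made after its values were seen. It read 37.1 and 38.6 FPKM in negative controls 1 and 2, 16.2 in negative control 3, and 24.0, 26.3 and 21.03 with the mimic (−0.26, SE 0.31). Negative control 3 was the lowest library. Sars, for serine, chosen likewise, read 68.1, 67.9 and 47.1 FPKM in controls and 53.5, 52.7 and 53.2 with the mimic (−0.18, SE 0.16).

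**Figure D2:**
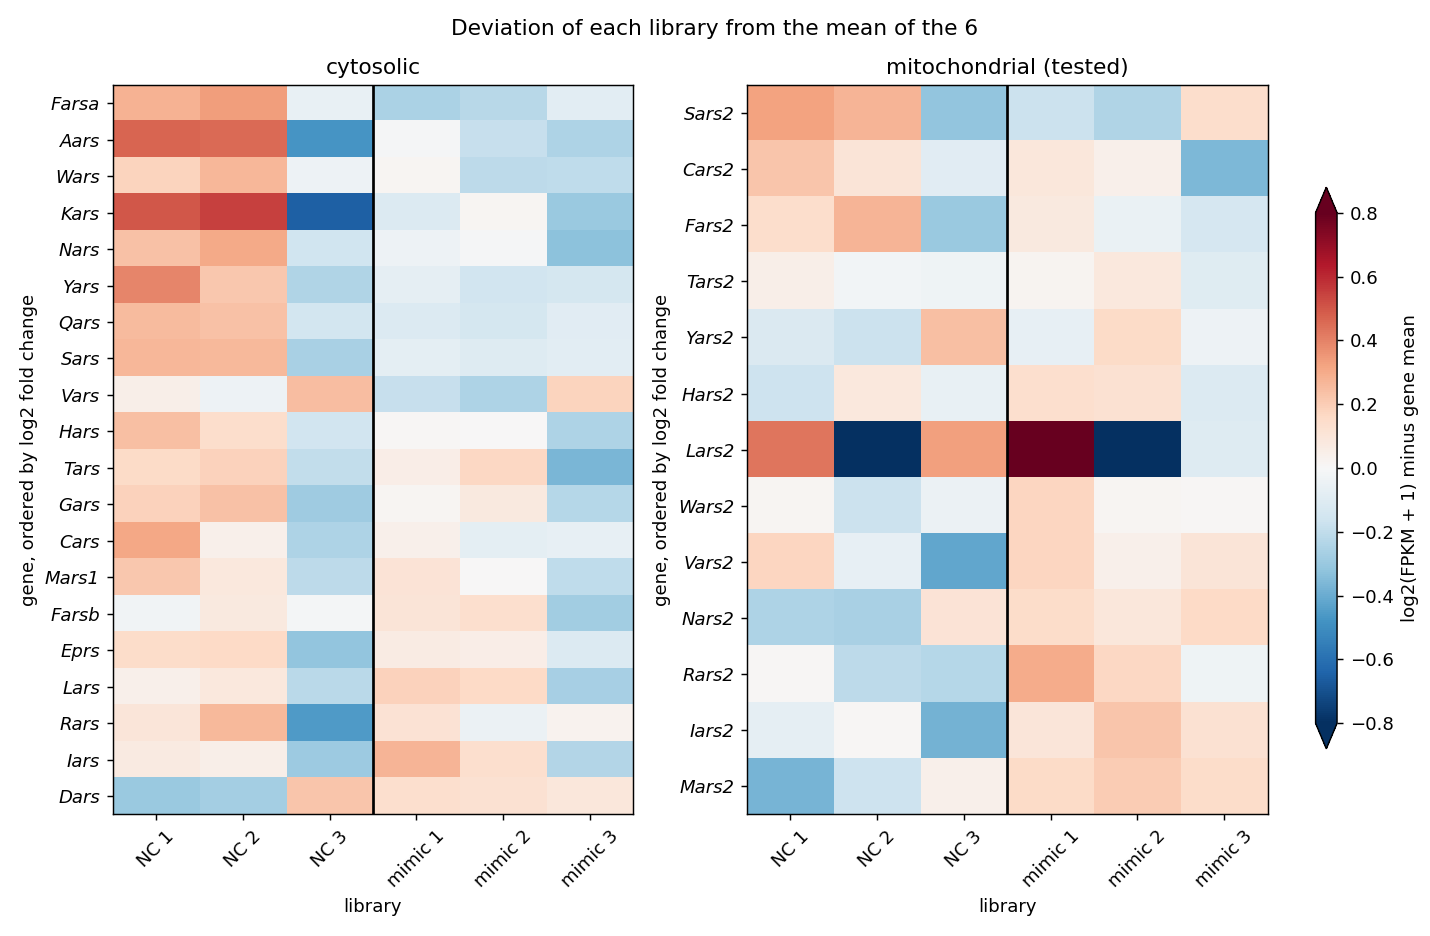
Deviation of log2(FPKM + 1) in each library from that gene's mean over the 6 libraries, for 20 cytosolic and 13 tested mitochondrial synthetases, ordered by log2 fold change (red above the mean, blue below; the scale stops at 0.8 and Lars2 exceeds it). In the cytosolic panel the first 2 control columns are mostly red and negative control 3 is mostly blue, with 18 of 20 genes below their mean.

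Counting libraries over the genes gave the same picture. In negative control 3, 18 of the 20 cytosolic synthetases were below their own mean over the 6 libraries and 11 were at their lowest. In negative controls 1 and 2 only 2 of 20 were below the mean in each. In mimic 3, 17 were below and 5 at their lowest, while in mimics 1 and 2 the counts below the mean were 8 and 10. Negative control 3 was nearer to the mimic mean than to the other controls in 18 of 20 cytosolic synthetases and in 8 of the 13 mitochondrial ones, with 65.7% as the share over all tested genes. The part that replicate 3 of each group plays in the differences between groups was not tested beyond leaving it out.

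Without negative control 3, limma called 9 of the 20 cytosolic synthetases, 8 lower and 1 higher. The same fit called 2412 of all tested genes (23.7%), 1237 lower (12.2%) and 1175 higher (11.6%), so calls were common everywhere in it. The 8 lower ones were Kars (log2 fold change −0.65, SE 0.10, adjusted p = 0.00978), Aars (−0.61, SE 0.10), Farsa (−0.49, SE 0.096), Yars (−0.42, SE 0.092), Nars (−0.39, SE 0.11), Qars (−0.36, SE 0.068), Wars (−0.35, SE 0.10) and Sars (−0.35, SE 0.064). Their adjusted p-values by limma ran up to 0.0494, that of Wars. The higher one was Dars (0.40, SE 0.065, limma adjusted p = 0.0102). The median over the 20 was −0.24, with 18 below 0, where 50.9% of all tested genes were below 0 and their median was −0.0064. In 7 of these 8 lower messages, Farsa being the exception, negative control 3, the library left out, read no more than the highest mimic. With replicate 3 of both groups left out, an alternative added after the data were seen, limma called 9 cytosolic synthetases lower and 1 higher, and 4377 of all genes (43.1%; 19.9% lower and 23.1% higher).

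**Figure D3:**
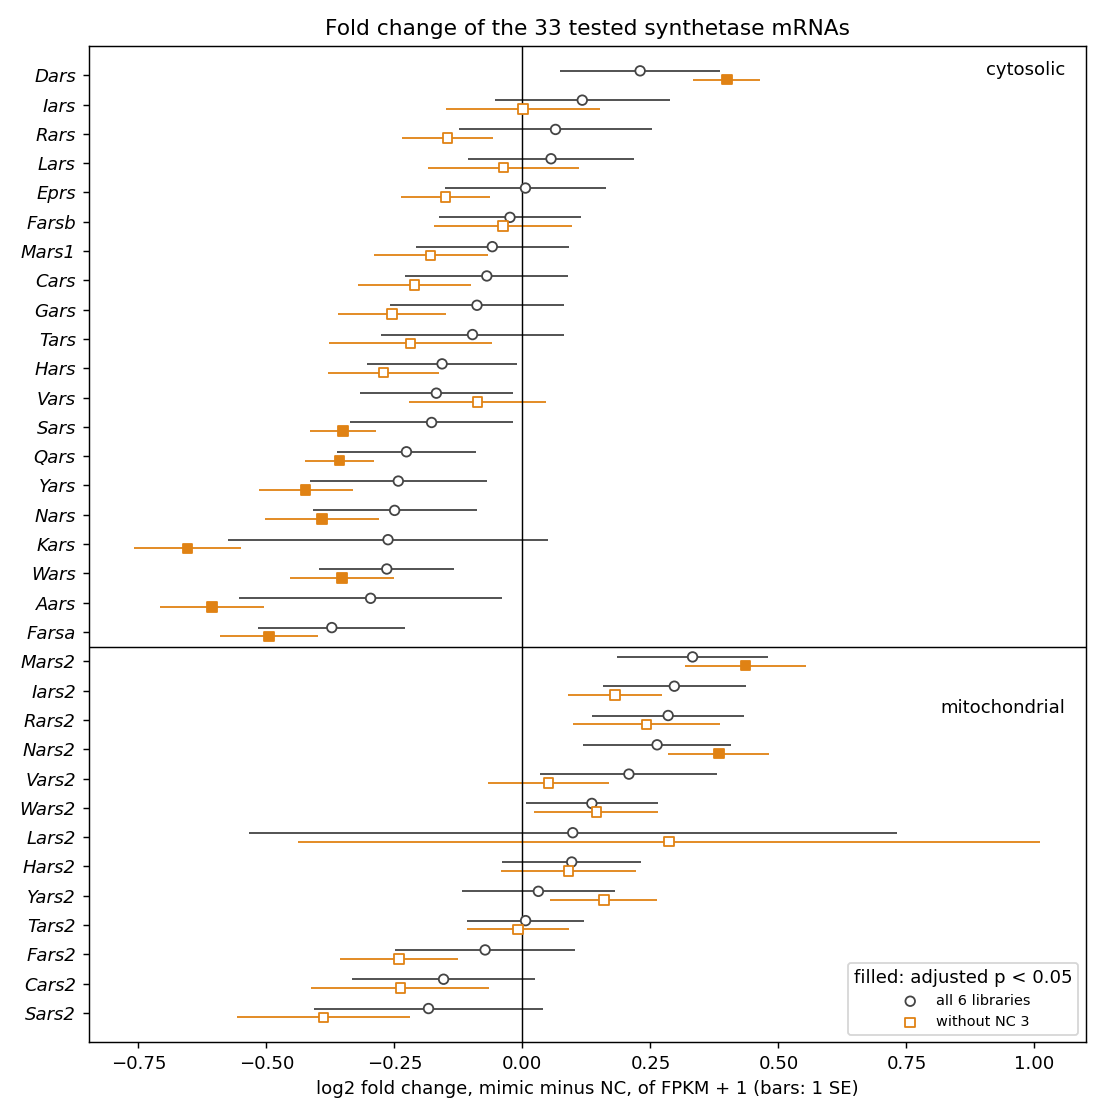
log2 fold change, mimic minus negative control, of the 33 tested synthetases with all 6 libraries (grey circles) and without negative control 3 (orange squares); bars are 1 SE and filled symbols passed an adjusted p of 0.05 by limma. No grey symbol is filled; 9 cytosolic and 2 mitochondrial orange ones are.

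Base composition moved with these differences. Across all 10128 tested genes with a known length and GC content the log2 fold change went down with GC (Spearman's rho −0.549) and up with exon length (0.383), and across the 33 synthetases the values were −0.539 and 0.152. Genes are not independent replicates and all points share the same 6 libraries. The 2 members with the lowest GC, Mars2 (38.8%) and Dars (41.2%), both had estimates above 0. With the trend on length and GC removed from each library and all 6 kept, limma called 0 synthetases and 0 genes in all, 981 genes being under an unadjusted p of 0.05 (9.69%). The cytosolic median was then −0.10 and the mitochondrial one 0.014. Dars stood at 0.042 and Mars2 at −0.018 on that scale, Farsa at −0.39 and Kars at −0.33. With the trend removed and negative control 3 left out, 389 of 10128 genes passed (3.84%; 2.81% lower), and among them were 3 synthetases, all cytosolic and lower: Kars (−0.67, limma adjusted p = 0.0176), Eprs (−0.51, adjusted p = 0.0312) and Nars (−0.40, adjusted p = 0.0469). Eprs, the joint enzyme for glutamate and proline, had stood at −0.15 without that correction (limma adjusted p = 0.250). Its annotated exons add up to 18102 bases, the most of any member.

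Members of the multi-synthetase complex did not move as one. Of its 8 synthetases 5 had an estimate above 0 and 3 below (median 0.031), with Dars and Iars highest and Kars and Qars lowest. The tally turned, without negative control 3, to 2 above and 6 below (median −0.15), and limma called 2 lower (Kars and Qars) and 1 higher (Dars). Over all tested genes that fit called 12.2% lower and 11.6% higher. Iars, for isoleucine, stood at 0.12 (SE 0.17), Rars, for arginine, at 0.065 (SE 0.19), Lars, for leucine, at 0.056 (SE 0.16), Eprs at 0.0060 (SE 0.16) and Mars1, for methionine, at −0.059 (SE 0.15). The ratio of Dars to Kars was 1.42 and 1.39 in negative controls 1 and 2, 4.69 in negative control 3, and 2.97, 2.69 and 3.29 in the mimics. The 3 mimic ratios therefore lay between the controls. The scaffolds Aimp1 (−0.089, SE 0.13), Aimp2 (0.10, SE 0.15) and Eef1e1 (0.054, SE 0.13) did not pass limma with all 6 libraries or without negative control 3. With length and GC corrected and negative control 3 left out, Aimp1 passed on the lower side (−0.63, limma adjusted p = 0.0217).

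The remaining cytosolic enzymes, those outside the complex and not yet described, were Gars for glycine (−0.089, SE 0.17), Cars for cysteine (−0.069, SE 0.16), Tars for threonine (−0.097, SE 0.18) and Hars for histidine (−0.16, SE 0.15). None of them passed limma without negative control 3 (smallest adjusted p = 0.114, that of Hars). Split by fold rather than by compartment, 10 of 17 tested class I enzymes had an estimate above 0 (median 0.056), as did 4 of 15 class II enzymes (median −0.097) and 56.3% of all genes. The counts above 0 without negative control 3 were 8 of 17 (median −0.037) and 3 of 15 (median −0.25). Eprs, which joins a domain of each class, was left out of that split.

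Mitochondrial synthetases were mostly low in FPKM and mostly higher in estimate. Mars2, for methionine, read 2.16, 2.65 and 3.21 FPKM in the controls and 3.54, 3.71 and 3.52 with the mimic. Every mimic value was above every control, as in 12.6% of all tested genes on the higher side, and the log2 fold change was 0.33 (SE 0.15, limma adjusted p = 0.388). Iars2, for isoleucine, read 6.59, 7.01 and 5.13 FPKM in controls and 7.53, 8.32 and 7.69 with the mimic, again without overlap (0.30, SE 0.14, limma adjusted p = 0.406). Of its exon bases 22.9% also belong to exons of Rab3gap2, which runs antisense to it. Whether counting used strand is unknown here, so fragments of the pair cannot be told apart. Nars2, for asparagine, read 3.34, 3.31 and 4.56 FPKM in controls and 4.70, 4.48 and 4.76 with the mimic (0.26, SE 0.14). Its first 2 controls were below all mimics and negative control 3 was among them. Rars2, for arginine, read 3.15, 2.58 and 2.53 FPKM in controls and 4.07, 3.63 and 3.03 with the mimic (0.28, SE 0.15), the lowest mimic lying under the highest control.

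Vars2 and Wars2 overlapped between groups. Vars2, for valine, read 4.33, 3.52 and 2.54 FPKM in controls and 4.32, 3.87 and 4.07 with the mimic (0.21, SE 0.17). Wars2, for tryptophan, read 3.43, 2.88 and 3.22 FPKM in controls and 3.94, 3.42 and 3.41 with the mimic (0.14, SE 0.13). Without negative control 3 limma called Mars2 (0.44, SE 0.12, adjusted p = 0.0405) and Nars2 (0.38, SE 0.098, adjusted p = 0.0345) higher, 2 of 13. In that fit 11.6% of all tested genes were called higher. Neither of the 2 passed limma once length and GC were corrected as well (−0.069, adjusted p = 0.737, and 0.19, adjusted p = 0.312). Nars2 holds an 8mer site for the seed, printed above, and its estimate was above 0 in each of these fits.

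Among the other mitochondrial enzymes, Lars2, for leucine, was unlike the rest. It read 84.8, 33.2 and 79.0 FPKM in negative controls 1, 2 and 3 and 166, 28.1 and 58.3 with the mimic. Libraries of one group thus differed from each other far more than the groups did (0.098, SE 0.63). Lars2 was also the only mitochondrial enzyme above its cytosolic partner in all 6 libraries: Lars over Lars2 was 0.110 to 0.638 in the 6 libraries, where the same ratio was above 1 in every library for 14 of the other pairs and 0.917 to 1.95 for Yars over Yars2. The predicted gene Gm15564, picked because its values followed those of Lars2, read 5.00, 2.46 and 5.71 FPKM in controls and 12.1, 1.76 and 3.80 with the mimic. Whether the fragments counted for Lars2 and Gm15564 came from their own messages was not tested. Hars2 (0.096), Yars2 (0.031), Tars2 (0.0063), Fars2 (−0.073), Cars2 (−0.15) and Sars2 (−0.18) made up the tested list, with SEs of 0.11 to 0.22. The lowest member was Pars2, for proline, at 0.601, 0.327 and 0.352 FPKM in controls and 0.448, 0.214 and 0.378 with the mimic, which is 11 to 29.1 fragments per library. Aars2 (0.682 to 1.22 FPKM) and Ears2 (0.343 to 0.935) were also below the filter.

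Genes that share a promoter motif of the amino acid response were looked at next. The letters TGATGCAA, a form of the element through which ATF4 acts, were searched on both strands in RefSeq promoters (250 bases before to 50 after the start site; GRCm38.p6), which held 13 of the 20 cytosolic and 14 of the 16 mitochondrial synthetases. Of the 13 cytosolic ones 4 held them and of the 14 mitochondrial ones none did, against 1.03% of all 27025 genes in that table. Of the 4, 3 are printed with the motif in capitals, each in the direction of its gene; TTGCATCA is the motif on the other strand.
Iars, chr13:49682128-49682153, plus strand: ctgtcagtaTTGCATCAcctccagac
Tars, chr15:11399657-11399682, minus strand: ggagtcccgTTGCATCAgctggttag
Yars, chr4:129189897-129189922, plus strand: gagctcagcTGATGCAAcccgacggg
With all 6 libraries the estimates of these 3 were −0.24 for Yars, −0.097 for Tars and 0.12 for Iars. Of the 13 synthetases listed as ATF4-responsive from general knowledge 10 were below 0 and 3 above (median −0.097). Without negative control 3 limma called 5 of them lower and 0 higher, where 12.2% of all genes were called lower and 11.6% higher. With length and GC corrected as well it called 2 lower and 0 higher, beside 2.81% of all genes lower and 1.03% higher.

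Other genes of the amino acid response also leaned lower. Of 25 tested, 18 were below 0 and 7 above (median −0.17), 0 passed limma, and 6 were lower and 1 higher at an unadjusted p under 0.05. Among all tested genes 43.7% were below 0, and 5.26% were lower at that unadjusted p. Ddit4, a stress-induced inhibitor of mTORC1, read 69.7, 65.1 and 50.8 FPKM in controls and 40.5, 36.5 and 47.2 with the mimic, without overlap (−0.56, SE 0.16, limma adjusted p = 0.333). The amino acid transporter Slc38a2 was higher without overlap (68.7 ± 1.40 and 88.8 ± 11.3 FPKM, SD, n = 3; log2 fold change 0.36, SE 0.12), and Psph, of serine synthesis, lower (7.25 ± 0.377 and 5.24 ± 0.969; −0.41, SE 0.15). Atf4 itself, named after its values were seen, read 118 and 109 FPKM in negative controls 1 and 2, 66.8 in negative control 3, and 69.2, 63.1 and 67.3 with the mimic (−0.51, SE 0.21, limma adjusted p = 0.368). Negative control 3 lay within the mimic range here, as it did in Nars and Wars. In Aars, Yars, Kars and Sars it lay below every mimic, and in Qars narrowly so (30.2 and, for the lowest mimic, 30.3 FPKM). The ATF4 target Ddit3 read 13.7, 13.5 and 5.32 FPKM in controls and 7.64, 7.95 and 6.72 with the mimic (−0.39, SE 0.32). Its negative control 3 was below every mimic as well. Asns, which makes asparagine, read 35.97, 36.5 and 29.7 FPKM in controls and 29.5, 34.2 and 27.0 with the mimic (−0.17, SE 0.14). Ddit3 and Asns were chosen by name and not by smallest p. Without negative control 3 limma called 9 of the 25 lower and 0 higher, beside 12.2% of all genes lower. With length and GC corrected as well it called 4 lower, beside 2.81% of all genes.

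**Figure D4:**
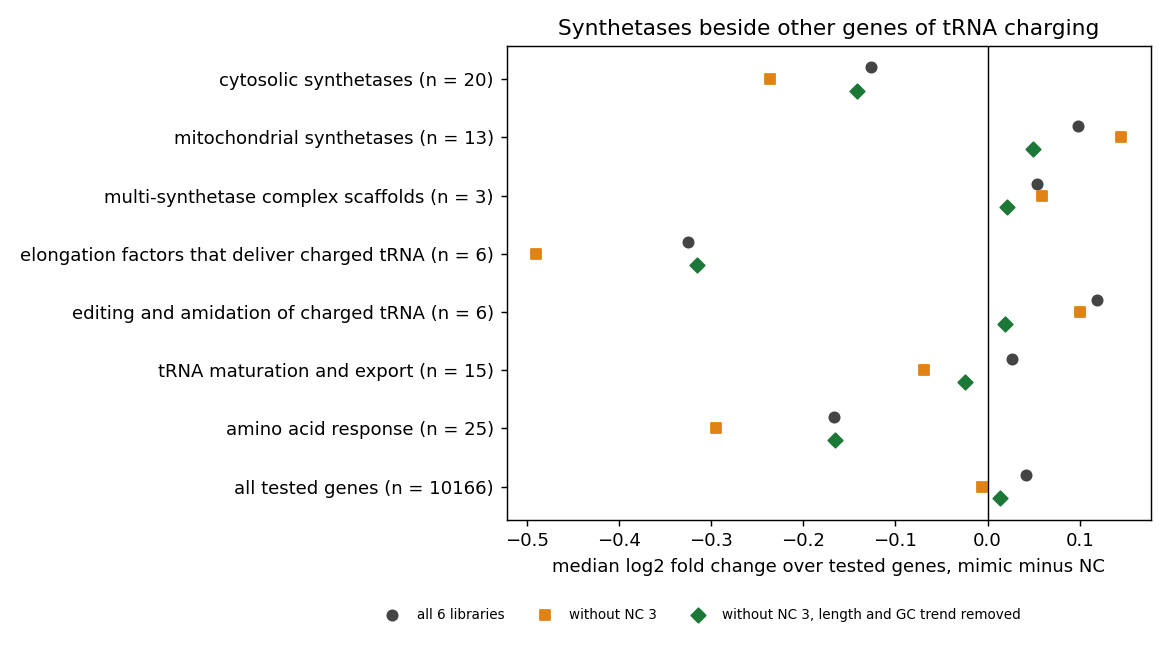
Median log2 fold change, mimic minus negative control, over the tested genes of each list with all 6 libraries (grey circles), without negative control 3 (orange squares), and without it after the length and GC correction (green diamonds); n is the number of tested genes (10128 for all genes after that correction). Cytosolic synthetases, elongation factors and amino acid response genes lie left of 0 in each fit and mitochondrial synthetases right of it; the medians carry no test.

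All 6 listed elongation factor genes, for carriers of charged transfer RNA to the ribosome and their exchange factors, had an estimate below 0 (median −0.33). None passed limma with all 6 libraries. Leaving out negative control 3, limma called 3 of the 6 lower (median −0.49), and with length and GC corrected as well it called 2. Of all tested genes these fits called 12.2% and 2.81% lower. Eef1g, a subunit of the exchange factor complex, read 584, 583 and 447 FPKM in controls and 383, 366 and 447 with the mimic, replicate 3 of each group being equal to 3 digits (−0.43, SE 0.15, limma adjusted p = 0.342). Tsfm, the mitochondrial exchange factor, read 7.60, 5.73 and 5.03 FPKM in controls and 4.96, 4.60 and 3.98 with the mimic (−0.36, SE 0.17). Eef1d stood at −0.31 (SE 0.18). Eef1g (−0.55, limma adjusted p = 0.0134) and Eef1d (−0.51, adjusted p = 0.00724) passed without negative control 3. Of 15 tested genes of transfer RNA maturation and export, 10 were above 0 and 5 below (median 0.027), near the 56.3% above 0 among all genes. That turned, without negative control 3, to 5 above and 10 below (median −0.069), with 2 called higher and 2 lower by limma. Among all tested genes 11.6% were called higher and 12.2% lower in that fit. Xpot, which exports transfer RNA from the nucleus, read 20.5, 20.04 and 18.0 FPKM in controls and 27.5, 29.4 and 24.0 with the mimic. Its groups did not overlap with all 6 libraries (0.44, SE 0.12, limma adjusted p = 0.333), and it passed without negative control 3 (0.39, adjusted p = 0.0363). The pseudouridine synthase Pus1 stood at −0.40 (SE 0.23) and the methyltransferase subunit Trmt61a at 0.32 (SE 0.18). Of 6 tested genes of editing and amidation 5 were above 0 (median 0.12), Gatc and Qrsl1 of the mitochondrial amidotransferase at 0.48 (SE 0.25) and 0.24 (SE 0.15) and the editing factor Prorsd1 at 0.23 (SE 0.14). The count without negative control 3 was 3 above and 3 below (median 0.10), with 1 called lower and 0 higher by limma. Over all tested genes the shares were again 12.2% lower and 11.6% higher.

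Among interferon response genes, followed because Wars is known as an interferon-inducible synthetase, 11 of 12 were analysed and 5 tested, 4 of them below 0. Irf7 read 15.4 and 15.2 FPKM in negative controls 1 and 2, 6.99 in negative control 3, and 6.45, 6.44 and 6.56 with the mimic (−0.78, SE 0.27, limma adjusted p = 0.337). Oasl1 stood at −0.51 (SE 0.35). Irf7 (−1.12, limma adjusted p = 0.0042) and Oasl1 (−0.91, adjusted p = 0.0287) were called lower without negative control 3, as were 12.2% of all tested genes. Of the 10 macrophage markers 9 had an estimate below 0 and 1 above (median −0.14), and 0 passed limma with all 6 libraries. After leaving out negative control 3 it called 5 lower and 1 higher, among them Tyrobp (−0.45, adjusted p = 0.0124), Lyz2 (−0.39, adjusted p = 0.0280) and Ptprc (0.57, adjusted p = 0.00698). The shares over all tested genes were 12.2% lower and 11.6% higher. With length and GC corrected as well limma called 1 marker lower, beside 2.81% of all genes. The part of these markers in the synthetase values was not tested.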

How the data were processed

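The authors deposited 1 table of FPKM values, with 6 columns matched to samples by title. The submitters' processing notes name fastp, HISAT2 and DESeq2 with the build mm10, without versions. The sources used here do not give the annotation, counting tool or strand setting. Of 16665 identifiers, 16582 matched GENCODE M21 (GRCm38). The test, on genes averaging at least 1 FPKM, was limma 3.58.1 (R 4.3.3; mean-variance trend), mimic minus negative control on log2(FPKM + 1), a scale on which low genes change less. SE is that of the moderated fit, SD that of 3 FPKM values. Depth was the value at which 98.9% to 99.3% of low FPKM values (up to 20 fragments, genes up to 5000 bases) were whole within 0.1 fragment. Length and GC trends were removed with splines of 4 degrees of freedom. Deviations of same-numbered samples correlated at 0.287, 0.183 and 0.339. All are above 0.1, the bar used for treating numbers as pairs, but negative control 2 and mimic 1 correlated at 0.308, and the labels state no pairing. Members and lists were chosen with earlier results of these data known. Values in every sample were given for the 8 cytosolic and 6 mitochondrial members with the smallest p and the highest and lowest by level, and of other lists for up to 3 genes. Farsb, Kars, Sars, Gm15564, Atf4, Ddit3 and Asns were given in addition, outside these rules. The scripts were tested on simulated data. One gene of another list and one promoter window are not reported here.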

Additional observations from a re-analysis of the deposited data

How the results depend on the processing

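Calls depended on negative control 3. With 1 library left out, 0 to 2412 genes and 0 to 11 synthetases passed limma, all of them when negative control 3 was the one left out; the cytosolic median lay between −0.236 and −0.0598 and the mitochondrial one between 0.0723 and 0.179. Without replicate 3 of both groups 4377 genes and 13 synthetases passed, with a mitochondrial median of 0.172. Array weights, which gave negative control 3 a weight of 0.0908, passed 4808 genes and 13 synthetases. After correction for length and GC the mitochondrial median was 0.0143; without negative control 3 as well, 389 genes and 3 synthetases passed. With the replicate block 0 genes and 0 synthetases passed (medians −0.127 and 0.0984), so the block changed no call (pairing from correlated deviations, not from labels). A pseudocount of 0.1, no filter, a minimum of 5 FPKM, quantile normalization, median centring and voom also gave 0 synthetases.

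Some estimates changed sign, among them that of Mars2 (0.332 with all 6 libraries). Under quantile normalization Eprs was −0.016, Farsb 0.0444 and Tars2 −0.0314. Under median centring Eprs was −0.0336, Tars2 −0.0333 and Yars2 −0.0084. With array weights Eprs was −0.0992, Farsb 0.0508 and Rars −0.139. With the trend removed Eprs was −0.292, Lars −0.0405, Mars1 0.0518, Mars2 −0.0183, Sars2 0.0264, Tars2 −0.0296 and Yars2 −0.00913. Without negative control 3 as well Eprs was −0.513, Lars −0.094, Mars1 0.0632, Rars −0.174, Vars 0.209 and Mars2 −0.0689. Without replicate 3 of both groups Eprs was −0.0939, Farsb 0.094 and Rars −0.145. Over single libraries left out the ranges were −0.211 to 0.0689 for Cars, −0.15 to 0.0872 for Eprs, −0.0973 to 0.107 for Farsb, −0.254 to 0.00647 for Gars, −0.0372 to 0.202 for Lars, −0.179 to 0.035 for Mars1, −0.146 to 0.212 for Rars, −0.219 to 0.0604 for Tars, −0.241 to 0.0438 for Fars2, −0.57 to 0.69 for Lars2, −0.0346 to 0.0576 for Tars2 and −0.0469 to 0.159 for Yars2. The causes were not tested.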
